A study of Mus musculus with 6 samples.

Results

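The data set was examined for chromatin of another lineage, at 8 genes that mark microglia: Csf1r, Cx3cr1, P2ry12, Aif1, Trem2, Tmem119, Spi1 and Ptprc. The genes were given by name, out of 21951 protein-coding genes of the annotation. For each one, the peaks that overlapped the gene body or the 20 kb on either side were taken from all 6 libraries, with bodies from GENCODE M21 on GRCm38. Peaks of the 6 lists that touched were merged, which left 47 regions in these windows out of 120143 regions in all.

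Microglia are the resident macrophages of the brain. They descend from yolk sac progenitors and not from the neural stem cells of the subependymal zone (SEZ), so they belong to another lineage than the cells these cultures were started from. In microglia and other macrophages the transcription factor PU.1 binds many enhancers and promoters, among them those of the receptor genes listed above. Many of these promoters hold few CpG dinucleotides, whereas promoters rich in CpG are open in most cell types whether or not the gene is used.

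The cells were neurosphere cultures from the SEZ of mice of 10 weeks, and every library carried the same genotype, a mutation of the Sox2 enhancer SRR2 made by CRISPR-Cas9 (Srr2del/del). PROLIF denotes 3 libraries of cells grown for 2 days in vitro (DIV) on Matrigel with FGF, and DIFF denotes 3 libraries taken 1 day after mitogens were withdrawn and fetal bovine serum was added (2 + 1 DIV). Replicates were numbered 1, 2 and 4 in both states, and were separate cultures by the study's account. No wild-type library enters these comparisons, and none of the values is an effect of the mutation. The sample labels give 2 days for PROLIF and speak of RNA, whereas the series design gives 3 days and the molecule is genomic DNA. A bulk library cannot tell a few cells with a wide-open site from many cells with a narrow one.

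The lists held 60006 to 88039 peaks. The stack of reads under each summit (pileup) was recovered from the deposited fold enrichment and p-value, and the lowest backgrounds that MACS2 used were 2.85 to 3.63 reads in 5 libraries and 6.01 in DIFF 4. DIFF 4 thus had the highest background in reads and also the longest list. Strength is given as a percentile, the rank of a peak's -log10 p within its own list, so that lists of different depth could be set side by side.

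The start sites of 6 of the 8 genes held no peak in any library within 1 kb, and the exceptions were P2ry12 and Tmem119. P2ry12, the purinergic receptor that steers microglial processes towards ATP and ADP, had a peak across its upstream start site in 6 of 6 libraries. Tmem119, a membrane protein used to tell microglia from blood-derived macrophages, had one in 5 of 6. Only P2ry12 was thus covered throughout within 1 kb, 1 gene of 8, where 61.1% of all protein-coding genes were. No peak in any library was found at 6 of the 8, against 30.8% of protein-coding genes. These counts take any annotated start of a gene. The P2ry12 peaks lie in a region 35057 bp upstream of the start of the transcript taken as principal (ENSMUST00000196583.4), which had no peak within 1 kb.

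The stretches below are shown because they set the open sites beside a closed one. Each is read on the strand of its gene, from RefSeq promoters or the RefSeq genome, build GRCm38.p6, and capitals mark matches to short motifs searched on both strands. The motifs were chosen after the data were seen: GAGGAA (the core of PU.1 sites), GGAAGT (ETS factors), TGANTCA (AP-1), ACAAAG or ACAATG (SOX), TGTGGT (RUNX), TTGGCA (an NFI site in part), CAGNTG (E-box), GGAATG (TEAD) and the consensus of CTCF. The 30 bases of P2ry12 lie upstream of its RefSeq start inside the merged region called in all 6 libraries. The DIFF 4 peak itself reached only to -0.041 kb from that start, covering part of these bases but not their GGAAGT match. The 30 bases are shown without their surroundings because the stretch is also annotated as untranslated sequence of Med12l, on the other strand. The Tmem119 stretch is the 200 bases upstream of its start. Peaks covered all of the Tmem119 stretch in PROLIF 2 and DIFF 2 and part of it in PROLIF 1, PROLIF 4 and DIFF 4. DIFF 1 had no peak there. The Trem2 stretch is the 250 bases upstream of a start with no peak, and the 201 bases each of Spi1 and Ptprc surround the summits of open introns.
P2ry12 upstream site (chr3:59263019-59263048, minus strand): agctaacaagaaGGAAGTtccccagtgaca
Tmem119 promoter (chr5:113800517-113800716, minus strand): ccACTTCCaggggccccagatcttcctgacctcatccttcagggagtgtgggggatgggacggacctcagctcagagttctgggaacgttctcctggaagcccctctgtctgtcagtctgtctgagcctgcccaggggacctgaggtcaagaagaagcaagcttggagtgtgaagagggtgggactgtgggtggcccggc
Trem2 promoter (chr17:48346151-48346400, plus strand): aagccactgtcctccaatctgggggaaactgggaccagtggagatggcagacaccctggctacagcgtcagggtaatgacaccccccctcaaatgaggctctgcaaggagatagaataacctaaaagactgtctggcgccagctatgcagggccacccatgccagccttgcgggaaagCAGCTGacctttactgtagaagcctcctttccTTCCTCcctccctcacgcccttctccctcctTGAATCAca
Spi1 intron 2 (chr2:91101515-91101715, plus strand): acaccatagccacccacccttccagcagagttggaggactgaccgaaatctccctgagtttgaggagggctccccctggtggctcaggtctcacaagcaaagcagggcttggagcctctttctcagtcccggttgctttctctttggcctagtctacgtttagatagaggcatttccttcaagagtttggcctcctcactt
Ptprc intron 2 (chr1:138136497-138136697, minus strand): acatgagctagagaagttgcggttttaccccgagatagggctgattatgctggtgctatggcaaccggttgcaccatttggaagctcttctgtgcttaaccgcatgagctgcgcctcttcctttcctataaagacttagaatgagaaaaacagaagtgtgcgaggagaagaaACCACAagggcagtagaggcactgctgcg

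The P2ry12 stretch was cut around its GGAAGT match, so that match is no result. The Tmem119 stretch held one too, read as its reverse complement, which lay under a peak in PROLIF 2 and DIFF 2 alone. Neither match lay within the 201 bases around the summit of its start-site region, which held no GGAAGT in either gene. Those bases did hold other motifs. The open Tmem119 region held GAGGAA and CAGNTG there, and the open P2ry12 region held CAGNTG and the letters of SOX sites. The unopened Trem2 promoter held letters matching GAGGAA, letters matching TGANTCA and letters matching CAGNTG. Among 32851 RefSeq promoters, the 250 upstream bases held GGAAGT in 19.7%, GAGGAA in 23.3%, TGANTCA in 6.75% and CAGNTG in 44.8%, so none of these letters is rare. The Ptprc stretch held TGTGGT (as ACCACA), as did 13.7% of all regions of that length, and the Spi1 stretch held no exact match to any of the motifs. Read as its reverse complement, the Spi1 stretch did hold letters that missed the 12-letter CTCF pattern of the search in the last letter alone. Such near matches were not counted.

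**Figure D1:**
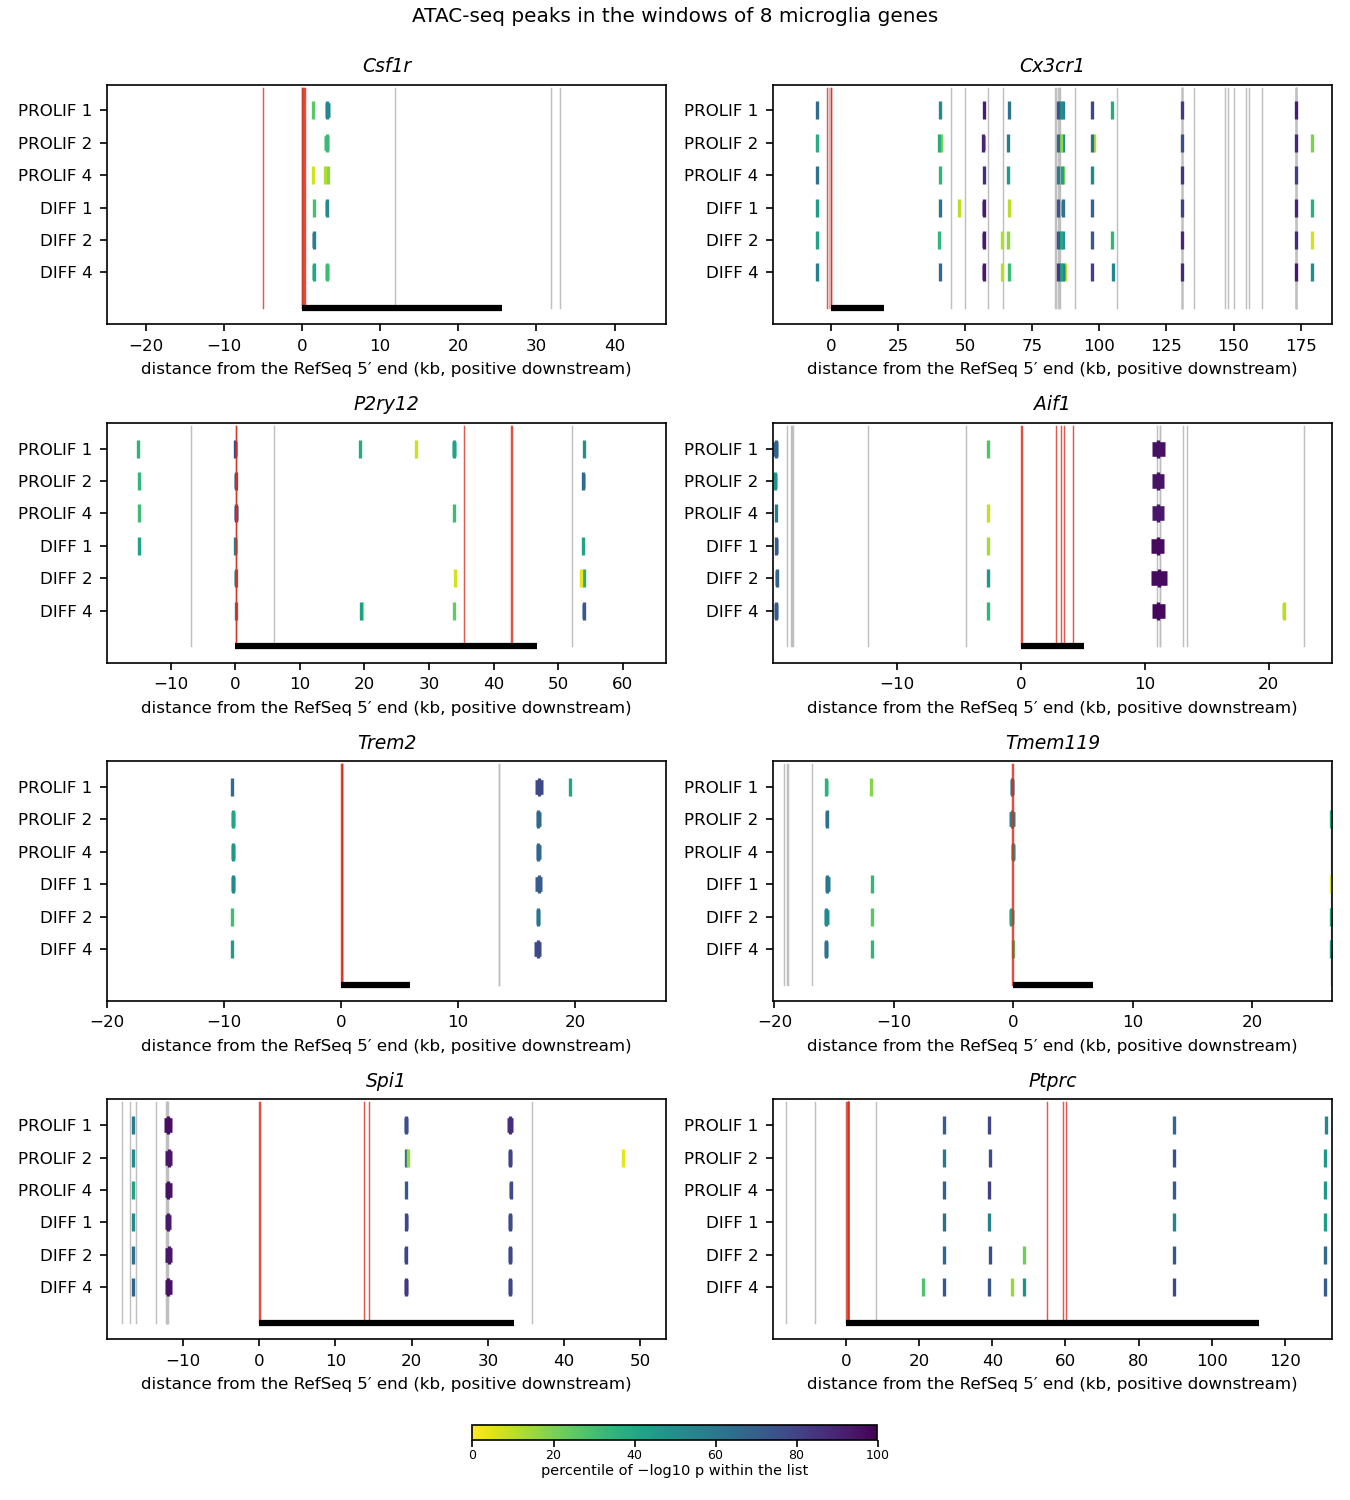
Peaks in the window of each gene, in 6 rows of libraries, against the distance in kb from the RefSeq 5′ end of the gene. Peaks are drawn to scale with a tick at their centre and coloured by percentile within the list, the black bar is the RefSeq gene body, red lines are start sites of the gene itself in GENCODE M21, and grey lines are those of other genes. Peaks sit on the upstream red lines of P2ry12 and on those of Tmem119, whereas the red lines of the other 6 genes carry none in any library.

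The P2ry12 region at chr3:59262638-59263201 was the clearest opening at a microglial start site. Its percentile was 78.1, 69.8 and 75.7 in PROLIF 1, 2 and 4, and 57.0, 57.6 and 56.8 in DIFF 1, 2 and 4. The fold enrichment over local background was 11.9, 8.88 and 9.62 in PROLIF and 5.83, 7.08 and 5.13 in DIFF. The pileups behind these values were 48, 34 and 36 reads in PROLIF and 26, 27 and 35 in DIFF. Every PROLIF library was thus above every DIFF library in rank and in fold enrichment, but not in pileup, where DIFF 4 with its higher background overlapped the PROLIF values. The mean percentile was 74.5 ± 4.30 (SD, n = 3) in PROLIF and 57.1 ± 0.389 in DIFF, a difference of -17.4 points (two-sided exact permutation test, p = 0.1, the smallest that 3 against 3 can give). The region lies in Med12l, a Mediator subunit gene that runs along the opposite strand, and overlaps one of its annotated exons. With unstranded ATAC signal, an opening at P2ry12 and one at that Med12l exon cannot be told apart.

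P2ry12 had 6 further regions in its window, none in all 6 libraries. A region 1259 bp upstream of the internal start of the principal transcript, chr3:59228840-59229453, was called in 4 libraries at percentiles from 6.77 to 41.9. A region in the upstream flank, chr3:59277804-59278177, was called in all 3 PROLIF libraries and in DIFF 1, at percentiles from 31.0 to 41.4. The region at chr3:59208759-59209467 was called in 5 libraries and lies 1415 bp from the start of P2ry13, a neighbouring receptor gene of the same family. The remaining 3 regions of the P2ry12 body were called in 1 or 2 libraries each.

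The Tmem119 start site was open in fewer libraries and more weakly. The region, chr5:113800253-113800780, covers exon 1, and its percentile was 60.5, 56.1 and 46.8 in PROLIF 1, 2 and 4, then 41.1 in DIFF 2 and 28.0 in DIFF 4. DIFF 1 had no peak there. Pileups were 29, 25 and 20 reads in PROLIF and 20 and 22 in DIFF. All 3 PROLIF percentiles were above both DIFF percentiles, and no test was run since 1 library lacked the peak. The 3 other regions of the Tmem119 window lay outside the gene. A region 11688 bp upstream (chr5:113812204-113812336) was called in 4 libraries at 18.1 to 34.7, and one near the pseudogene Gm19931 in 5 at 35.3 to 63.1. A region of 171 bp at the paired starts of Iscu and Sart3 was called in 4 at 4.73 to 43.6. It is not the strongest peak there. Both genes had a peak within 250 bp of a start in 6 libraries, and their best peaks within 3 kb ranked at 56.4 to 82.1.

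Csf1r, the receptor for CSF1 and IL-34 on which microglia depend for survival, had no peak at any of its 6 start sites. Its regions were 2, both in intron 1 and both weak. The nearer one, chr18:61106896-61107222, began 1017 bp downstream of the last start. Its percentile was 25.6 in PROLIF 1, 6.91 in PROLIF 4, 29.3 in DIFF 1, 56.8 in DIFF 2 and 40.2 in DIFF 4, with no peak in PROLIF 2. The farther one, chr18:61108347-61109128, was at 52.8, 32.2 and 17.5 in PROLIF 1, 2 and 4, at 51.8 in DIFF 1 and 31.5 in DIFF 4, with no peak in DIFF 2. Each library thus had at least 1 of the pair, which is why Csf1r counts as open in 6 libraries when the promoter is taken as 3 kb and in 0 libraries at 1 kb. The first intron of Csf1r is known to hold a macrophage enhancer, and whether either region is that element was not tested.

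Cx3cr1, the fractalkine receptor, had no peak within 3 kb of a start site in any library. The region nearest to it, chr9:120073235-120073544, lay 3356 bp upstream. It was called in all 6 libraries, at percentiles of 64.5, 37.5 and 61.6 in PROLIF 1, 2 and 4 and 44.6, 41.1 and 56.8 in DIFF 1, 2 and 4. The states overlapped (54.5 ± 14.8 against 47.5 ± 8.26, SD, n = 3 each; exact permutation test, p = 0.5). No peak fell in the RefSeq body of Cx3cr1, which is 19.6 kb long. GENCODE M21 gives the gene a body of 168 kb, which runs downstream through its neighbours, and the other 14 of its 15 regions lay in that extension or in the flank beyond it.

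Of the 14 regions far from Cx3cr1, 10 were within 3 kb of the start of another gene. The start sites of Wdr48 with Gm2449 (82.0 to 93.5) and of Gorasp1 with Ttc21a (76.8 to 89.3) were open in every library. Those of Csrnp1 and its antisense 1700019L13Rik had a pair of regions in every library, at 42.0 to 62.0 and 58.7 to 84.1. A region near the noncoding Gm49427 ranked at 87.6 to 93.6 and was higher in all DIFF libraries, and one near Gm47043 was at 54.7 ± 8.59 in PROLIF and 19.6 ± 10.8 in DIFF, without overlap (SD, n = 3 each; exact permutation test, p = 0.1). The 2 constant regions of the extension that were not near a start, in Csrnp1 and at 3673 bp from Xirp1, ranked at 53.4 to 81.7 and 34.3 to 65.8. A flank region called in 4 libraries (6.77 to 52.3) lay in Gm2449, and the remaining regions were found in 1 to 3 libraries.

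Trem2, a lipid-sensing receptor that signals through the adaptor Tyrobp, had no peak in its body or within 3 kb of its start sites. A region 9080 bp upstream, chr17:48336981-48337321, was called in all 6 libraries. Its percentile was 65.7, 40.9 and 46.8 in PROLIF 1, 2 and 4, and 52.8, 30.6 and 44.8 in DIFF 1, 2 and 4, with overlap between the states. A stronger region downstream, chr17:48362911-48363607, was called in all 6 at 61.6 to 78.2 and lay 2992 bp from the start of Treml1, a related receptor of platelets. A region in Treml1 was called in PROLIF 1 alone.

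Aif1, which encodes the calcium-binding protein IBA1 used to stain microglia, had no peak in its body. A weak region 2566 bp upstream, chr17:35178634-35178838, was called in 5 libraries, at 27.5 in PROLIF 1, 8.80 in PROLIF 4, 13.3 in DIFF 1, 46.9 in DIFF 2 and 34.7 in DIFF 4. PROLIF 2 had no peak there. This region is nearer to the pseudogene Ncr3-ps than to Aif1. The remaining regions belonged to the gene-dense neighbourhood. The start of Prrc2a (with Gm17705 and the snoRNA Gm23442) ranked at 93.8 to 97.8 in all 6 libraries and was higher in every DIFF library, and a region by Ltb and Mir6973a ranked at 46.8 to 72.5 in all 6. A second region near Prrc2a was called in DIFF 4 alone.

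Spi1 encodes PU.1 itself. Its canonical start site (ENSMUST00000002180.7) had no peak, nor did any of its other starts within 3 kb. Inside the gene, intron 2 was open in every library at chr2:91101343-91101907, 5247 bp downstream of the canonical start. Its percentile was 76.5, 61.5 and 72.9 in PROLIF 1, 2 and 4, and 78.9, 79.4 and 83.6 in DIFF 1, 2 and 4. All DIFF libraries were above all PROLIF libraries (80.6 ± 2.61 against 70.3 ± 7.83, SD, n = 3 each; exact permutation test, p = 0.1). A region over exon 5, which overlaps the untranslated end of the transcript and lies 2517 bp from the start of Mybpc3, was at 77.2 to 86.8 in all 6. Spi1 is known to have an upstream enhancer in blood cells, whose position was not matched here. The interval 13 to 15 kb upstream of the canonical start held 0 peaks in each of the 6 libraries. The strong region beyond it, at 93.3 to 96.2, covers the start of Slc39a13, and a further region of that gene was at 41.5 to 68.2. A region of the downstream flank was called in PROLIF 2 alone.

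Ptprc encodes CD45, the phosphatase present on all nucleated blood cells. None of its 12 annotated start sites had a peak within 3 kb in any library. Its long body nevertheless held 3 regions open in all 6 libraries, in intron 17 and at a pair of sites in intron 2. The strongest, chr1:138136252-138136760, had percentiles of 79.1, 77.3 and 81.6 in PROLIF 1, 2 and 4 and of 57.0, 76.8 and 74.0 in DIFF 1, 2 and 4. Every PROLIF value was above every DIFF value, the closest being 77.3 and 76.8 (79.4 ± 2.18 against 69.2 ± 10.7, SD, n = 3 each; exact permutation test, p = 0.1), and DIFF 1 was lowest by a wide margin. The other intron 2 site, chr1:138148586-138149349, ranked at 59.9 to 72.9 and the intron 17 site, chr1:138085751-138086119, at 55.0 to 78.4, both with overlapping states. A region of the downstream flank was called in all 6 at 44.6 to 70.9. In 2 DIFF libraries alone a further site of intron 2 was called, at 21.8 and 48.8, and the last 2 regions were each called in 1 library. No other gene starts within 3 kb of any of these regions. Chromosome 1 held 8.63 to 10.5% of the peaks of a list.

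**Figure D2:**
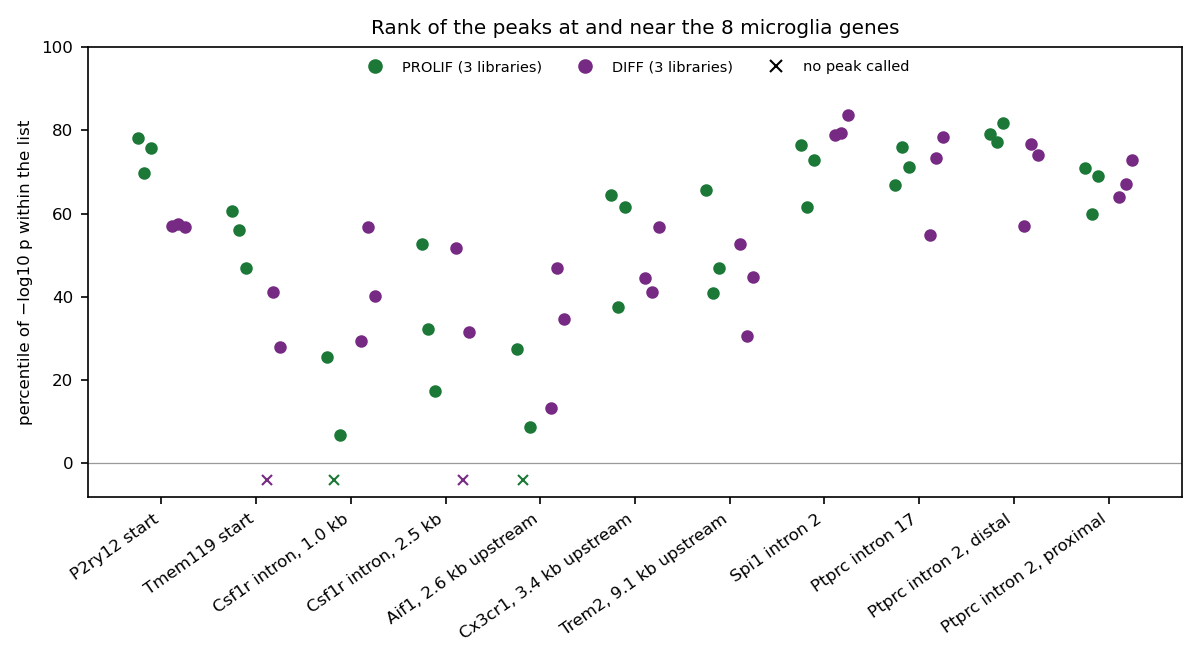
Percentile of −log10 p within the list (vertical axis) for the peaks at or nearest to each gene, with PROLIF libraries in green and DIFF libraries in purple. Each point is 1 library, in the order 1, 2 and 4 from left to right within a state, and a cross marks a library with no peak. The P2ry12 start and the distal Ptprc intron 2 site are higher in all PROLIF libraries, and Spi1 intron 2 in all DIFF libraries. Of all regions with a peak in all 6 libraries, 11.7% were higher throughout PROLIF and 21.1% throughout DIFF. Crosses appear only at Tmem119, Csf1r and Aif1.

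Counted over the 8 windows, 22 of the 47 regions were open in all 6 libraries (46.8%, against 33.4% of all regions), and 10 were found in 1 library (29.7% of all regions were). Of the 22, 12 lay within 3 kb of the start of another gene and 1 at a start of a microglia gene, the P2ry12 site. The gene bodies away from starts held 4, the GENCODE extension of Cx3cr1 2 and the flanks 3. The windows held 6.42 regions per 100 kb, where the median over protein-coding genes was 6.47, and 3.00 constant regions per 100 kb, where the median was 2.48. The constant regions had a median percentile of 69.4, where all such regions had 70.7. Pooled over the 8 genes, the density was thus near the median window of protein-coding genes, and the rank near that of all constant regions. Single windows differed widely, from 0 constant regions per 100 kb in Csf1r and Tmem119 to 5.45 in Spi1, and Cx3cr1 alone held 9 of the 22. At the same time 6 of the 8 genes had no peak within 1 kb of a start.

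No region of the windows was open throughout one state and absent from the other, where 1.78% of all regions were PROLIF-only and 3.47% DIFF-only. Among the 22 constant regions, 3 had every PROLIF percentile above every DIFF percentile (11.7% of all constant regions did) and 3 the reverse (21.1%). The former were the P2ry12 start, the Ptprc intron 2 site and the region near Gm47043. The latter were Spi1 intron 2 and the regions near Prrc2a and Gm49427.

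By library, the windows held 36, 34 and 30 peaks in PROLIF 1, 2 and 4 and 32, 36 and 42 in DIFF 1, 2 and 4. The means were 33.3 ± 3.06 in PROLIF and 36.7 ± 5.03 in DIFF (SD, n = 3 each; two-sided exact permutation test, p = 0.5). Set against the length of each list, this was 4.35 to 5.10 peaks per 10000 in PROLIF and 4.49 to 5.09 in DIFF (p = 0.9, exact permutation test). The covered length was 13.6 ± 2.21 kb in PROLIF and 14.8 ± 1.54 kb in DIFF (SD, n = 3 each; exact permutation test, p = 0.6). The number of the 8 genes with a peak within 3 kb of a start was 4, 3 and 4 in PROLIF and 3, 4 and 4 in DIFF (exact permutation test, p = 1). None of these measures differed between the states beyond the spread of the libraries.

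The remainder of the microglia and macrophage repertoire was then set beside the 8 genes, with lists of other lineages as reference. Within 3 kb of a start, a peak was called in all 6 libraries for 2 of the 8 genes (Csf1r and P2ry12), in 5 for 2 (Aif1 and Tmem119) and in 0 for 4 (Cx3cr1, Trem2, Spi1 and Ptprc). None of the 8 was open in PROLIF only or DIFF only, where 0.228% and 0.374% of protein-coding genes were. Over all protein-coding genes 64.4% had one in all 6 libraries and 25.4% in none. Of 30 other microglia and macrophage genes, 10 were open in every library and 14 were closed in every library. All 20 neural stem and progenitor genes had one in all 6 libraries, led by Gli3, Nfia, Vim and Fabp7, whose lowest percentiles were 89.2 to 91.8.

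The genes of the other microglia list open in all 6 libraries included the interferon regulatory factor gene Irf8 (72.9 to 85.7) and Sall1 (70.4 to 88.3), a zinc-finger factor also used in neural and kidney development. Those with no peak in any library included genes of the complement subunits C1qa and C1qb, of the integrin subunits Itgam and Itgb2, and of the signalling adaptors Tyrobp and Fcer1g. Fcrls, Gpr34, Siglech, Selplg, Cd53 and Cd33, most of which encode proteins of the myeloid cell surface, and the cathepsin gene Ctss were closed as well.

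Lists of other lineages outside the neural one were counted in the same way. Of 10 lymphoid and erythroid genes, 8 had no peak (among them Cd3e, Cd4, Cd8a, Cd79a, Ms4a1, Gata1 and Hbb-bs), and Pax5 and Klf1 had one in all 6 libraries. Of 10 endothelial genes, 5 had none (Cdh5, Tie1, Tek, Cldn5 and Emcn) and 4 had one throughout (Flt1, Kdr, Egfl7 and Erg). At 250 bp the count open in all 6 libraries was 1 of 8 for the microglia genes, 8 of 30 for the other microglia and macrophage genes, 19 of 20 for neural stem and progenitor genes, 3 of 10 for endothelial and 0 of 10 for lymphoid and erythroid genes, where 58.4% of protein-coding genes were.

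**Figure D3:**
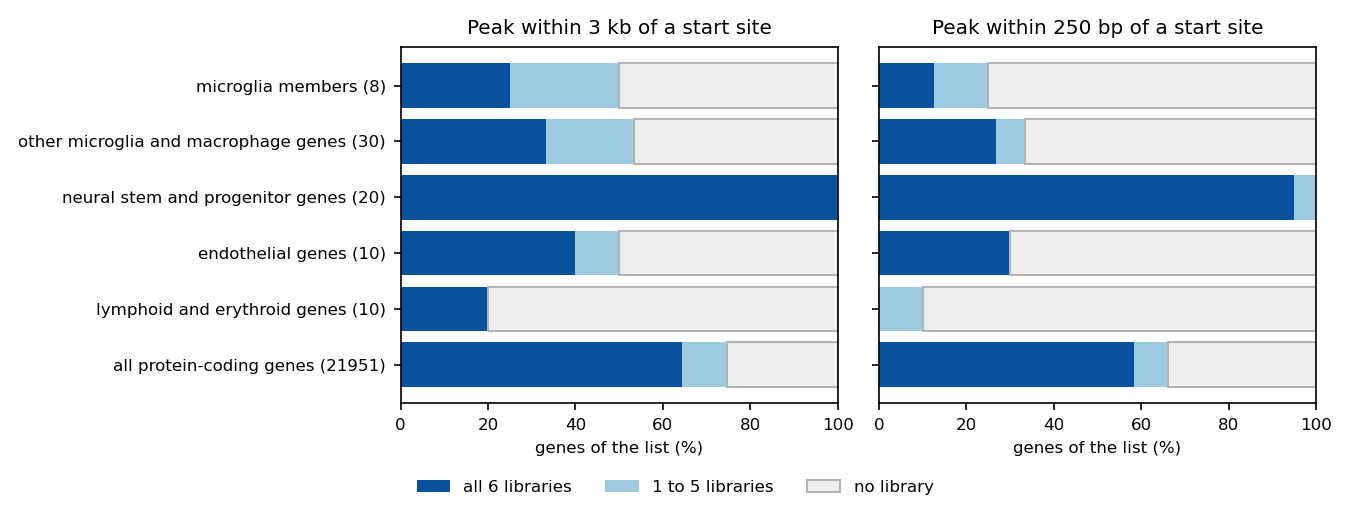
Share of the genes of each list (horizontal axis, %; number of genes in parentheses) with a peak in all 6, in 1 to 5 or in no library, within 3 kb of a start site (left) and within 250 bp (right). The neural stem and progenitor list is filled at 3 kb with 20 of 20 genes, whereas 4 of the 8 microglia genes and 8 of the 10 lymphoid and erythroid genes have no peak.

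CpG content was counted because it marks promoters that are open in most tissues. In 300 bp around a start, with the highest count over the coding transcripts of a gene, the 8 genes held a median of 5 CpG, from 3 in Csf1r to 11 in Spi1. The median was 16 over all protein-coding genes and 22.5 over the neural stem and progenitor list. P2ry12 had 5 CpG and Tmem119 had 6. Among protein-coding genes with 3 to 5 CpG, 11.8% had a peak within 250 bp in all 6 libraries, and with 6 to 10 CpG 33.7% did. The share was 87.3% with 11 or more. Counts of P2ry12, Tmem119 and Spi1 lay at the edges of these classes, so genes with exactly the same count were also taken. Of genes with 5 CpG, as P2ry12, 15% were open in all 6 libraries and 73.7% in none. The shares were 21.8% and 62.4% at 6 CpG, as Tmem119, and 54.5% and 30.7% at 11 CpG, as Spi1. Among the genes of the other microglia and macrophage list that were open within 250 bp in all 6 libraries, Olfml3 held 8 CpG, Sall1 18, Mertk 20, Runx1 35, Irf8 40 and Ikzf1 52. Of those with no peak within 250 bp in any library, Gpr34 and Siglech held 2, C1qa 7, Itgb2 8, Selplg 10 and Fcer1g 11.

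**Figure D4:**
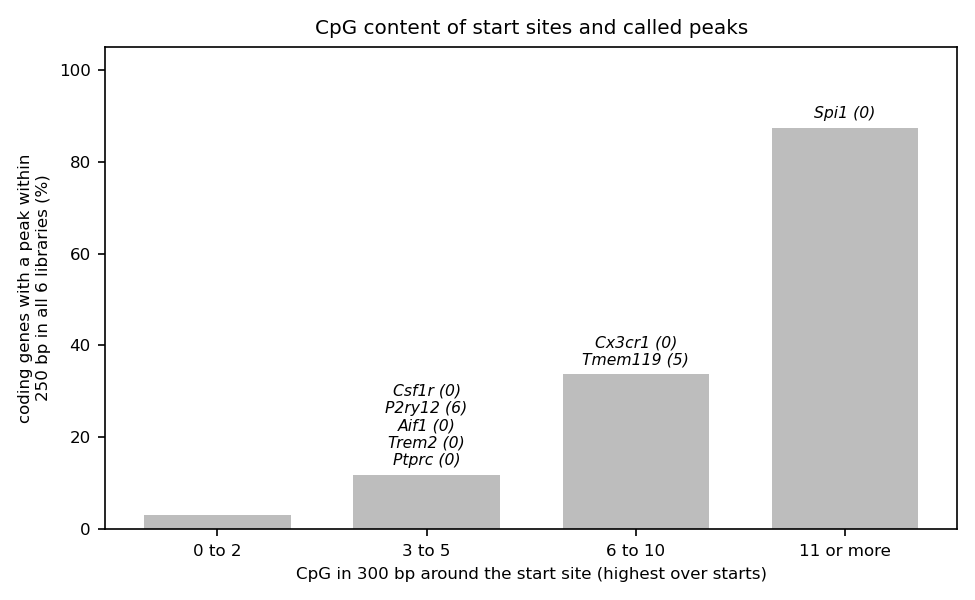
Share of protein-coding genes with a peak within 250 bp of a start site in all 6 libraries (vertical axis, %), by the number of CpG in 300 bp around the start (horizontal axis). The microglia genes are written above the bar of their class, with the number of libraries that had a peak in parentheses: P2ry12 with 6 libraries stands over a bar of 11.8%. Spi1 with 0 stands over a bar of 87.3%, but has the lowest count of that class, and 54.5% of genes with its count of 11 were open.

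The constant regions of the windows were searched for the motifs in the 201 bases around their summits. GAGGAA, the PU.1 core, was found in 3 of 22 (13.6%), where 18.1% of all constant regions held it. GGAAGT was found in 3 (13.6%, against 15.3%) and TGTGGT in 4 (18.2%, against 11.3%). The CTCF consensus was found in 2 (9.09%, against 9.5%), CAGNTG in 7 (31.8%, against 45.1%) and TGANTCA in 0 (against 6.56%). The letters of SOX sites were found in 5 (22.7%, against 26.0%), TTGGCA in 5 (22.7%, against 17.0%) and GGAATG in 3 (13.6%, against 12.3%). Matches to GAGGAA can overlap those to GGAAGT by 4 letters, and a match is a stretch of letters and not a bound site. With 22 regions, 1 region more or fewer moves a share by several points. The Tmem119 start region and the nearer Csf1r intron region also held GAGGAA, but were called in 5 libraries and are not among the 22. Over all 47 regions of the windows GAGGAA was found in 8, where 19.0% of all regions held it.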

How the data were processed

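The assay was ATAC-seq, in which a transposase cuts open chromatin, on 6 libraries of Srr2del/del SEZ cultures (3 PROLIF, 3 DIFF). Before deposit, the authors removed adapters (Cutadapt), trimmed reads (Trimmomatic), mapped them to GRCm38 (Bowtie2), flagged duplicates (Picard) and ran MACS2 per library for narrow peaks, without model, at an FDR of 0.05. Versions, read shift and extension are not given in the sources used here. The deposited peak lists hold, per peak, a score, the fold enrichment at the summit (a ratio over local background), and the -log10 p and -log10 q values. The authors' lists end at the threshold, so a missing peak is a site below it, not a measured 0.

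Peaks were assigned to windows of 20 kb around GENCODE M21 bodies, merged where they overlapped by 1 bp, and ranked by -log10 p within each list. Regions count as open in a library with any overlapping peak, and a promoter peak lies within 3 kb of an annotated start. Pileup and background were solved from fold and p with the formulas of MACS2, and came out whole (within 0.05 read) for 99.4 to 99.8% of peaks. The test between states was an exact two-sided permutation of library labels (scipy 1.17.1), whose smallest p is 0.1, with no adjustment over regions. Peak scripts were tested on simulated data. The genome was checked against the RefSeq promoter table (658 of 658 stretches equal). RefSeq promoters were found for 5 of the 8 genes, not for Csf1r, Tmem119 and Spi1.

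The members and lists were chosen with earlier results of these data known. All 8 genes, every region in 4 or more libraries with the other genes starting within 3 kb of it, and, of each list, the genes open in no library and up to 4 of the highest-ranked in all 6 were to be named, and some of these genes are not reported here. Genes named beyond this rule (C1qc, Lyz2, Cd68, Pecam1, Adgre1, Laptm5 and the low-ranked open genes) were chosen after their values were seen. Alternatives were stricter q, equal or shorter lists, other windows and distances, a cover of 50%, each library left out and a replicate block. Same-numbered PROLIF and DIFF libraries (1, 2 and 4) correlated at 0.0550, 0.153 and 0.0122 in their deviations over 39088 regions. Differently numbered ones correlated at -0.113 to 0.0614, a range that was exceeded by replicate 2 alone.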

Additional observations from a re-analysis of the deposited data

How the results depend on the processing

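The differences between states were small, and several changed sign. DIFF minus PROLIF in window peaks was 3.33, but -1.67 with lists of equal length and -0.667 without peaks within 3 kb of another start. The difference in peaks per 10000 was -0.0347, and 0.0396 at a q of 0.01. The difference in covered length was 1.14 kb, and -0.279 kb without peaks near other starts. With 1 library left out the differences ran from 0.667 to 5.67 peaks, from -0.268 to 0.113 per 10000, from 0.0132 to 2.22 kb and from -0.333 to 0.333 genes with a promoter peak. Per 10000 peaks, the sign turned without PROLIF 2 (0.107), PROLIF 4 (0.0563) or DIFF 1 (0.113). The 22 constant regions became 6 with the strongest 20000 peaks of each list, 14 with 5 kb flanks or with RefSeq bounds, 13 with the body alone, 10 without regions near other starts, 9 when a peak had to cover 50% of the region, and 22 to 24 with 1 library left out. State-only regions, 0 in each direction, became 1 in each with equal lists and 1 for DIFF with the strongest 20000 peaks. With 1 library left out they were 0 to 1 for PROLIF (1 without DIFF 1) and 0 to 2 for DIFF (1 without PROLIF 1, 2 without PROLIF 2 or DIFF 1). Genes open in all 6 libraries, 2 at 3 kb, were 1 at 1 kb or 250 bp, 0 with the strongest 20000 peaks (7 then had none), and 2 to 3 with 1 library left out, while 4 to 4 then had none. The 3 constant regions with DIFF percentiles higher became 5 with equal lists and 3 to 7 with 1 library left out (7 without PROLIF 1, 6 without DIFF 1 or DIFF 2), and the 3 with PROLIF higher became 3 to 5 (5 without PROLIF 2). The cause of these changes was not tested, beyond fewer peaks, shorter windows or fewer libraries where the setting itself removes them. The replicate numbers were not shown to pair the libraries. As a replicate block they left the differences at 3.33 peaks, -0.0347 per 10000, 1.14 kb and 0 genes, with sign-flip p = 0.75, 0.75, 0.75 and 1 by exact permutation (smallest possible 0.25). Regions changing one way in at least 2 numbers and never the other were 1 for PROLIF and 5 for DIFF. The 250 bp promoters, the RefSeq bounds and the alternatives for ranks were chosen after the data were seen.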

Other observations

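A few genes of the microglia and macrophage list had a promoter peak in one state only. C1qc, a complement subunit gene, had a peak 869 to 1019 bp from its start in the 3 DIFF libraries (percentiles 22.1, 26.4 and 56.8, pileups 16, 16 and 35) and in no PROLIF library. Lyz2, the lysozyme gene of myeloid cells, had one at its start in the 3 DIFF libraries, with pileups of 84, 14 and 29 reads over local backgrounds of 17.0, 2.96 and 6.01. The pileup of DIFF 1 was thus the highest, and so was its local background. Cd68, a lysosomal membrane protein gene, had a peak 1943 to 2013 bp away in the 3 PROLIF libraries at percentiles of 5.46 to 11.8, nearer to Mir1934. Over all protein-coding genes, 0.228% had a promoter peak throughout PROLIF alone and 0.374% throughout DIFF alone. Adgre1, which encodes the macrophage marker F4/80, had a peak at its start in DIFF 4 alone (percentile 58.1), and Laptm5 one in PROLIF 2 alone (8.73). Of the endothelial genes, Pecam1 had one in the 3 PROLIF libraries alone (44.1 to 55.1).

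P2ry12 lies inside Med12l on the opposite strand, as do the receptor genes P2ry13, P2ry14 and Gpr171. Within 250 bp of a start, P2ry12 had a peak in 6 libraries, P2ry14 in 1, and Gpr171 and P2ry13 in 0. Within 3 kb P2ry12 had one in 6 libraries, P2ry14 in 1, Gpr171 in 0 and P2ry13 in 5. The start of Med12l itself was open in all 6 libraries, at 84.5 to 91.4.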
